A study of Mus musculus with 30 samples.

Results

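The brain makes, loads and breaks down the inhibitory transmitter GABA, and sets the chloride gradient that its receptors use, through the products of 7 genes described here: Gad1, Gad2, Slc32a1, Abat, Slc12a2, Slc12a5 and Wnk1. They were chosen by name for these roles, and all 7 were found among the 19737 genes measured by RNA-Seq of whole brains of male C57BL/6N mice. WT mice were compared with Arid1b+/- (HT) mice, which carry a heterozygous CRISPR/Cas9 deletion of exon 5 of Arid1b, a subunit gene of a chromatin remodeler. The P10-WT and P10-HT groups were naive pups of postnatal day 10. The WT-Veh, HT-Veh, WT-Flx and HT-Flx groups were adults of day 120 (P120) whose dams drank 0.2% saccharin water from day 3 to day 21 after birth, either alone (Veh) or with 0.1 mg/ml of fluoxetine (Flx), a selective serotonin-reuptake inhibitor that reached the pups through the milk. Each group had 5 libraries, 1 per mouse, and all mice came from a single targeted line. The sources used here give neither litters nor cages for single mice, so p-values measure the spread between these mice.

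GABA is made from glutamate by glutamate decarboxylase, of which Gad1 encodes the form found throughout the neuron and Gad2 the form enriched at nerve terminals. Slc32a1 encodes the transporter that loads GABA and glycine into synaptic vesicles, and Abat the transaminase that breaks GABA down in mitochondria. Slc12a2 encodes NKCC1, which carries chloride into cells together with sodium and potassium, whereas Slc12a5 encodes KCC2, the neuronal cotransporter that carries chloride out with potassium. Their balance sets how far opening of GABA-A receptors hyperpolarizes a neuron, and in the rodent forebrain KCC2 is known to rise over the first postnatal weeks. Wnk1 encodes a chloride-sensitive kinase that, through the kinases SPAK (Stk39) and OSR1 (Oxsr1), activates NKCC1 and inhibits KCC2. In the figure of all values and throughout the text, a value is a read count normalized across the 30 libraries by the authors, and because the tissue was whole brain, fewer cells of a type and less RNA per cell cannot be told apart.

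Arid1b was lower in every P10-HT library (2162 to 2334) than in every P10-WT library (3164 to 3309), with a log2 difference of −0.55 (adjusted p = 1.52e-05, limma). At P120 the library labelled HT-Veh 2 stood at 3361, within the range of WT libraries, and the library labelled WT-Veh 2 at 2320, within the range of HT libraries, so the calls of members that use them, and the ratio below, are also given without them. The other P120 libraries ranged from 2961 to 3392 in WT and from 1973 to 2616 in HT mice. The normalized values of a library summed to between 31578614 and 41801037, a sum that is not its sequencing depth, and the depth behind each value is unknown. Of 12 lists of cell type markers, from neurons and glia to choroid plexus and red blood cells, every gene had a mean of at least 1 in each group. Libraries also differed in how their values moved with the share of G and C in a transcript: the slope of a gene's deviation on GC content was −0.174 to 0.0451 log2 units per 10 percentage points at P10, but −0.406 to 0.704 at P120. All 5 HT-Flx slopes were positive (0.291 to 0.704) and all 5 WT-Flx slopes negative (−0.406 to −0.315). Results on adults are therefore also given from libraries corrected for GC content and transcript length, in which genes were sorted into 100 bins alike in both and the mean deviation of a bin in a library was subtracted from its genes. This removes any difference shared by genes of like GC content and length, whatever its source.

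The 7 genes lie far apart on this scale. Among genes tested, the median GC content of a transcript was 50.2%, and Slc32a1 (61.9%, percentile 97.6) and Slc12a5 (58.3%, percentile 89.6) stood high, whereas Gad2 (44.1%, percentile 19.1) and Slc12a2 (44.2%, percentile 19.6) stood low. Gad1 (48.4%), Wnk1 (49.0%) and Abat (50.2%) were close to the median. As short examples of base composition, which do not stand for whole transcripts, central 90-base stretches of the longest coding exon of 4 members are shown with every G and C in capitals (GRCm38, plus strand). They come from exon 7 of Slc12a5 (chr2:164979355-164979444), exon 2 of Slc32a1 (chr2:158614365-158614454), exon 5 of Gad1 (chr2:70574146-70574235) and exon 4 of Gad2 (chr2:22624870-22624959).
Slc12a5: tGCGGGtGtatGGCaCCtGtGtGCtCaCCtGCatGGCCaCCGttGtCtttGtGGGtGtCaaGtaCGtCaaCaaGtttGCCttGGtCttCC
Slc32a1: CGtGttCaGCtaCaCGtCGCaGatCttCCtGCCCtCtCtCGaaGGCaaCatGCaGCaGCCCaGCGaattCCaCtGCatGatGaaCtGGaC
Gad1: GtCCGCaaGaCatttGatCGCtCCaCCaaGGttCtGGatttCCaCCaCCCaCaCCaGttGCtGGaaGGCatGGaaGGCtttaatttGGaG
Gad2: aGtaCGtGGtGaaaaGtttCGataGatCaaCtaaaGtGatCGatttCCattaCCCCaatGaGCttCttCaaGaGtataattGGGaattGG
The capitals make up 54.4% of the stretch of Slc12a5, 55.6% of that of Slc32a1 and 51.1% of that of Gad1, but 37.8% of that of Gad2. Over whole coding sequences, Gad1 (50.4%) and Gad2 (49.2%) were closer than over whole transcripts, so the stretches overstate the gap between the enzymes. Slc32a1 (61.5%) and Slc12a5 (57.4%) stood higher over whole coding sequences than in their stretches.

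**Figure D1:**
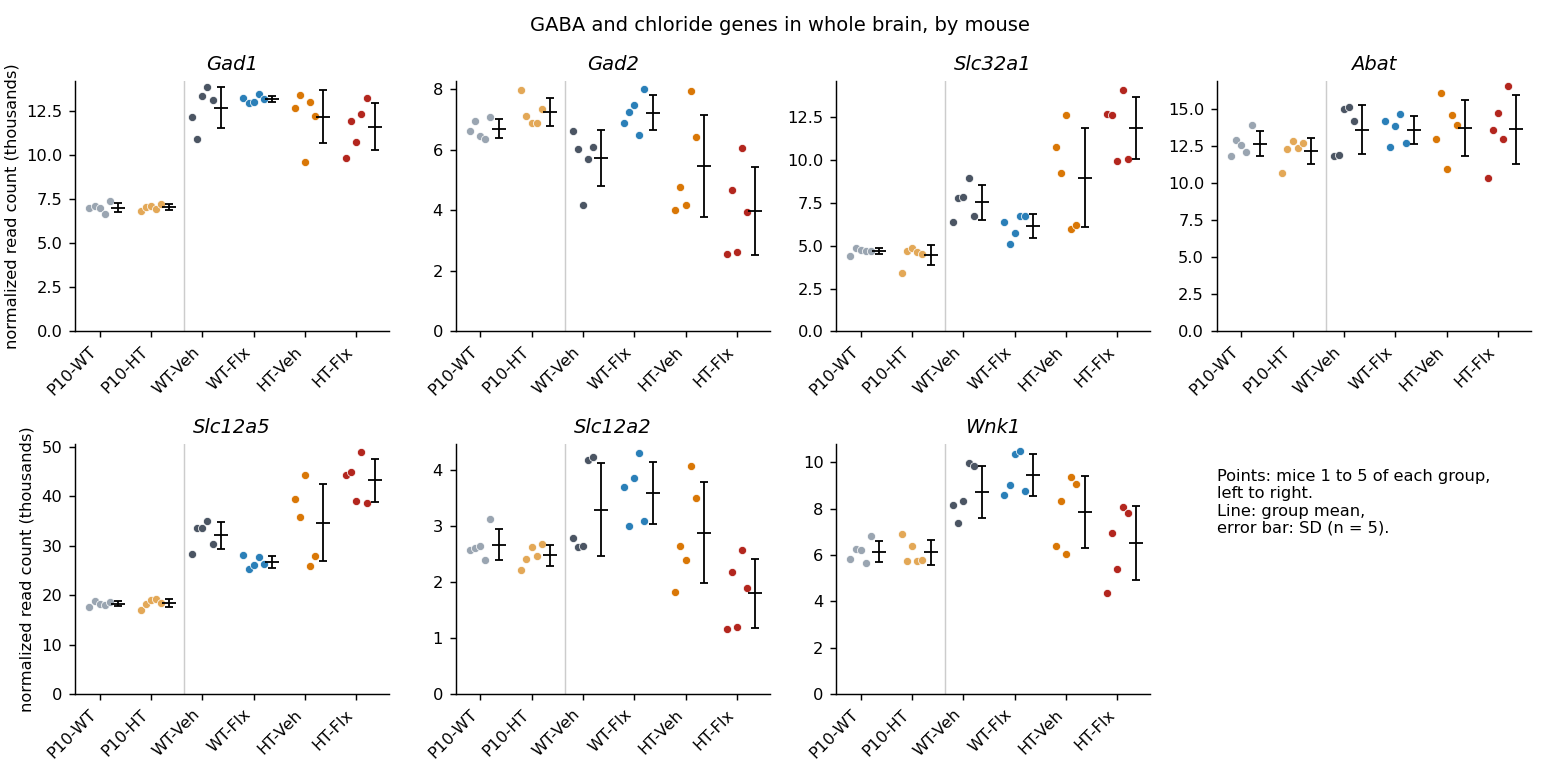
Normalized read count of the 7 genes (y axes, each starting at 0) in the 6 groups (x axis), with 1 point per mouse from replicate 1 at the left to 5 at the right, and the mean with its SD. Gad1, Slc32a1 and Slc12a5 are higher in the adult groups than in the P10 groups, and the HT-Veh and HT-Flx points spread more widely than those at P10.

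In the GRCm38 annotation, Gad1 (ENSMUSG00000070880) spans positions 70553072 to 70602014 of chromosome 2, Gad2 (ENSMUSG00000026787) 22622205 to 22693874, Slc32a1 (ENSMUSG00000037771) 158610767 to 158615748 and Slc12a5 (ENSMUSG00000017740) 164960802 to 164999731 of the same chromosome, all on the plus strand. Abat (ENSMUSG00000057880) lies on the plus strand of chromosome 16 from 8513429 to 8621568, Slc12a2 (ENSMUSG00000024597) on the plus strand of chromosome 18 from 57878678 to 57946821, and Wnk1 (ENSMUSG00000045962) on the minus strand of chromosome 6 from 119923969 to 120038672. The start of Gad1 overlaps an antisense gene, Gad1os, and since the library kit does not mark strand, reads of the overlap cannot be told apart.

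Gad1, Slc12a5 and Slc32a1 were the members whose deposited values differed most between pups and adults, an order that the correction changed (Gad1 0.93, Slc12a2 0.71, Wnk1 0.62, Slc32a1 0.60 and Slc12a5 0.55 in WT mice with the longest coding sequence). The first of these comparisons asked how expression in WT brain differed between P10 and P120, and its 2 ages carry different prefixes in the library labels and differ in the saccharin water of the dams, so age, library set and vehicle cannot be told apart. Gad1 stood at 7003, 7085, 6978, 6643 and 7365 in the 5 P10-WT mice (7015 ± 258, SD, n = 5) and at 12134, 10907, 13323, 13833 and 13139.9 in the 5 WT-Veh mice (12668 ± 1161). The lowest adult was above the highest pup, with a log2 difference of 0.85 (95% interval 0.70 to 1.00, adjusted p = 4.34e-07) by limma on log2(value + 1), a scale on which all differences here are given. Slc12a5, the chloride extruder, moved almost as far, from 17696.5, 18889, 18144, 17997 and 18619 (18269 ± 481) to 28350.2, 33608, 33621, 34945 and 30320.3 (32169 ± 2733). Its groups did not overlap either, with a difference of 0.81 (95% interval 0.67 to 0.96, adjusted p = 4.43e-07).

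Slc32a1, which fills the vesicles, went from 4406, 4873, 4766, 4677 and 4724 (4689 ± 174) to 6378, 7764, 7843, 8956 and 6767 (7542 ± 1012) in WT mice, a difference of 0.68 (95% interval 0.49 to 0.86, adjusted p = 1.80e-05). Wnk1, the kinase upstream of both cotransporters, went from 5817, 6253, 6220.3, 5653 and 6814 (6151 ± 451) to 8158, 7398, 8346, 9984 and 9832 (8744 ± 1122), a difference of 0.50 (95% interval 0.31 to 0.69, adjusted p = 3.10e-04). With these, 4 of the 7 members rose and none fell, and the groups of all 4 did not overlap. Of all 17927 genes tested, 58.3% passed the threshold of an adjusted p under 0.05, 28.9% higher and 29.4% lower, and 45.6% did not overlap, 22.6% with all adults higher. The share of members called was thus close to that of the transcriptome. Of the called genes 49.5% were higher in adults, or 39.3% when all libraries were rescaled to equal totals, which shifted the median of all genes by −0.12 log2 units. The 4 members were called without the library labelled WT-Veh 2 and under equal totals as well.

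The other 3 members did not pass in WT mice. Gad2, the terminal enzyme, stood at 6603, 6938, 6455, 6348 and 7082 (6685 ± 314) in pups and 6600.2, 6017, 4159.7, 5679 and 6070.4 (5705 ± 925) in adults, with groups that overlapped and a difference of −0.24 (95% interval −0.47 to −0.02, adjusted p = 0.0597). Slc12a2, the chloride importer, stood at 2569, 2613, 2654, 2390.5 and 3123 (2669.9 ± 273) and 2788, 2628, 2654, 4176 and 4233 (3296 ± 832), a difference of 0.27 (95% interval −0.03 to 0.58, adjusted p = 0.116). In this gene WT-Veh 4 and 5 stood far above the other 3 adults, which lay within the range of the pups. Abat, at 12655 ± 816 in pups and 13598 ± 1634 in adults, differed by 0.10 (95% interval −0.08 to 0.28, adjusted p = 0.337). After correction for GC content and length, Slc12a2 was also called higher in WT adults, by 0.71, 0.66 and 0.52 under 3 ways of assigning a transcript to a gene (the longest coding sequence, the mean over transcripts and the longest transcript). Gad1, Slc32a1, Slc12a5 and Wnk1 were called higher under all 3 ways. Calls were as common over all genes after correction, with 10660 of 17927 called with the longest coding sequence and 5664 of these higher. Gad2 differed then by 0.11, −0.04 and −0.00, with no call, whereas under equal totals it was called lower by −0.35 (adjusted p = 0.0148).

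HT mice were compared over the same ages. Gad1 went from 6819.7, 7066, 7098, 6930.5 and 7247 (7032 ± 164) in P10-HT mice to 12668, 13402, 9615, 13017 and 12199 (12180.2 ± 1501) in HT-Veh mice, a difference of 0.78 (95% interval 0.55 to 1.02, adjusted p = 6.84e-05). Slc12a5 went from 17101, 18199, 18946, 19336 and 18355 (18387.5 ± 852) to 39519, 35735, 44359, 25943 and 27885 (34688 ± 7758), a difference of 0.89 (95% interval 0.57 to 1.20, adjusted p = 2.83e-04). HT-Veh 1 to 3 lay far above HT-Veh 4 and 5 in this gene, yet all 5 were above every pup. Slc32a1 showed the same order of the adults, from 3439, 4716, 4895, 4656 and 4519 (4445 ± 578) to 10789, 9233, 12665, 5977 and 6231 (8979 ± 2894), a difference of 0.96 (95% interval 0.53 to 1.39, adjusted p = 0.00151). These 3 rose with groups that did not overlap, without the library labelled HT-Veh 2 as well, against 51.1% of the 17989 genes tested that were called (25.8% higher and 25.3% lower) and 40.2% that did not overlap (20.4% with all adults higher). Of the called genes 50.5% were higher in adults, or 37.4% under equal totals, which shifted the median of all genes by −0.18.

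Gad2 was the only member that was lower in HT adults, from 7977, 7103, 6864, 6861 and 7333 (7228 ± 462) to 3991, 4748, 4155, 7938 and 6418 (5449.8 ± 1690.0). Its difference of −0.46 (95% interval −0.83 to −0.08, adjusted p = 0.0412) passed, but HT-Veh 4 was above 4 of the 5 pups. The call was lost when any 1 of 8 of the 10 libraries was left out, the library labelled HT-Veh 2 among them (−0.42, adjusted p = 0.0904), and after correction the difference was 0.07, −0.14 and −0.06. Wnk1, at 6115 ± 527 in pups and 7854 ± 1543 in adults, differed by 0.34 (95% interval 0.04 to 0.64, adjusted p = 0.0541), Slc12a2 by 0.16 (95% interval −0.23 to 0.56, adjusted p = 0.47) and Abat by 0.16 (95% interval −0.09 to 0.41, adjusted p = 0.265). Corrected values again put Slc12a2 (0.82, 0.75 and 0.56) and Wnk1 (0.57, 0.76 and 0.58) above the threshold. With the longest coding sequence 10039 of all 17989 genes were called, 5269 of them higher. The age difference itself was tested between genotypes over 18 libraries, without the 2 vehicle libraries numbered 2, and no member was called. Of 17969 genes 0 passed this test of limma (0%), 613 (3.41%) had an unadjusted p under 0.05, and the intervals of the members ran from −0.41 to 0.10 for Gad1 to −0.72 to 0.39 for Slc12a2.

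Beyond the 7 members, 71 of 74 listed genes of GABA and chloride handling were measured, and 24 rose and 23 fell with age in WT mice, beside 28.9% of all genes higher and 29.4% lower, with a median difference of −0.03 beside −0.01 over all genes. The GABA-A receptor subunits fell more often than they rose, with 10 lower and 2 higher of 17 tested. Gabra5, a subunit of extrasynaptic receptors, fell by 1.07 in WT and fell by 1.47 in HT mice, whereas Gabrd, another extrasynaptic subunit, rose by 1.30 and 1.53. In HT mice 11 subunits were lower and 3 higher, Gabrg3 among the lower (−1.23). Of 6 genes of GABA-B receptors and their auxiliary subunits, 4 were lower and 1 higher in WT and 4 lower and none higher in HT mice, with Kctd12b at −1.16 and −1.30 and Kctd16 at −0.97 in WT mice. Of 4 GABA transporters of the plasma membrane 3 rose in both genotypes. Slc6a11, an astrocytic transporter, differed by 0.07 and 0.20 with no call.

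Among genes that supply or break down GABA precursors, 4 of 9 rose in each genotype, led by Glul, the glutamine synthetase of astrocytes (1.25 and 1.09), and Pdxk, the kinase that makes the cofactor of glutamate decarboxylase (0.82 and 1.04), while 2 fell in WT and 1 in HT mice. Car2, a carbonic anhydrase that makes bicarbonate, was 1.58 higher in both, within a list of 9 chloride and bicarbonate genes of which 4 rose and 3 fell in each. At the inhibitory postsynapse 4 of 11 rose and 3 fell in WT, and 3 rose and 3 fell in HT mice, with Insyn1 at 0.81 and 0.97 and Mdga1, which restrains neuroligins, at −1.22 and −1.11. Neto2, which binds KCC2 and kainate receptors, fell furthest of the genes named here in deposited values (−1.40 and −1.59) but less than Mdga1 in values corrected with the longest coding sequence (−0.94 in both, against −1.41 and −1.47). Kinases that act on cotransporters were divided: Wnk2 rose in both genotypes (0.36 and 0.43), Wnk3 was called lower in HT mice (−0.56) but not in WT mice (−0.31, adjusted p = 0.0617), and neither Stk39 (0.15 and 0.20) nor Oxsr1 (−0.02 and −0.20) passed. With the same correction Wnk2 was at 0.16 in WT mice, still called, and at 0.08 in HT mice (adjusted p = 0.356), Wnk3 turned to 0.12 and 0.09 with no call (adjusted p = 0.138 and 0.301), and Stk39 was called higher (0.23 and 0.36). In all, 3 of 9 kinases and regulators rose and 1 fell in WT, and 1 rose and 2 fell in HT mice, against 4 and 2 higher and none lower after correction. Of 6 other cation-chloride cotransporters 3 were higher in WT and none was called in HT mice, while corrected values had 1 higher and 1 lower in each. Over all lists 18 rose and 24 fell in HT mice, beside 25.8% of all genes higher and 25.3% lower, and corrected values gave 25 higher and 23 lower in WT and 20 in each direction in HT mice. With that correction 10660 of all 17927 genes were called in WT mice (5664 higher) and 10039 of 17989 in HT mice (5269 higher).

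Markers of several cell types differed with age beside these genes. Over all genes 28.9% were called higher and 29.4% lower in WT adults, and 25.8% higher and 25.3% lower in HT adults. Of 15 GABAergic interneuron markers, 7 were lower and 2 higher in WT-Veh than in P10-WT mice, and their summed level was 26521 to 27944 in pups and 19819 to 28175 in adults. Striatal projection neurons, which also make GABA, had 5 of 8 markers higher in both genotypes, and Purkinje cells 2 of 6 in WT and 6 of 6 in HT mice. The choroid plexus, whose epithelium expresses Slc12a2, had 7 of 8 markers higher and 1 lower in WT mice, with a summed level of 11823 to 16197 in pups and 23384 to 34707 in adults. Oligodendrocytes had 4 of 8 markers higher in WT adults and 6 of 8 in HT adults, and their precursors had 7 of 7 lower in WT and 5 of 7 in HT adults. The part of these cell types in the differences of the 7 members was not tested.

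At P10 the question was how heterozygous loss of Arid1b alters gene expression in the pup brain, and no member passed the test against the spread between mice. Gad2 came closest, with the P10-HT values 7977, 7103, 6864, 6861 and 7333 against P10-WT values of 6603, 6938, 6455, 6348 and 7082. The means were 7228 ± 462 and 6685 ± 314, a difference of 0.11 (95% interval 0.01 to 0.22, adjusted p = 0.377). None of the 7 was called, beside 0.0224% of 17896 genes (4 genes), and Gad2 alone had an unadjusted p under 0.05, as 2249 genes (12.6%) did. Intervals were narrow here: −0.07 to 0.08 for Gad1, −0.08 to 0.09 for Slc12a5, −0.14 to 0.13 for Wnk1 and −0.18 to 0.06 for Abat. For Slc12a2 the interval was −0.25 to 0.05 and for Slc32a1 −0.26 to 0.08. P10-HT 1 stood apart in several genes, with the lowest Slc32a1 (3439), Abat (10691) and Slc12a2 (2210.2) and the highest Gad2 (7977) and Wnk1 (6922) of its group, and it also had the lowest GC slope of the 10 pups (−0.174).

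At P120 in vehicle-treated mice, the baseline comparison of adults, 4 HT-Veh and 4 WT-Veh libraries were compared, without those numbered 2. The choice follows a listing of libraries for this comparison by the authors, whereas their figure captions give 5 mice per group. None of the 17784 genes tested passed in limma (0%), 229 (1.29%) had an unadjusted p under 0.05, and no member was among either. Arid1b itself did not pass (−0.49, unadjusted p = 0.00337, adjusted p = 0.999869, limma), although it was lower in all 4 HT-Veh libraries. The lack of calls therefore does not show that the genotypes were alike. Slc12a5 stood at 39519, 35735, 44359, 25943 and 27885 in the 5 HT-Veh mice. Of the 4 compared, HT-Veh 1 and 3 were above all 4 WT-Veh mice and HT-Veh 4 and 5 below all of them, and the library labelled HT-Veh 2, whose Arid1b lay in the WT range, was left out. The interval of the difference was −0.36 to 0.52 for Slc12a5, −0.37 to 0.74 for Slc32a1 and −0.85 to 0.32 for Slc12a2. It was −0.48 to 0.18 for Gad1, −0.57 to 0.49 for Gad2, −0.44 to 0.24 for Abat and −0.66 to 0.15 for Wnk1. The intervals of all 7 were thus wider than at P10. With all 5 and 5 libraries no member was called either.

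**Figure D2:**
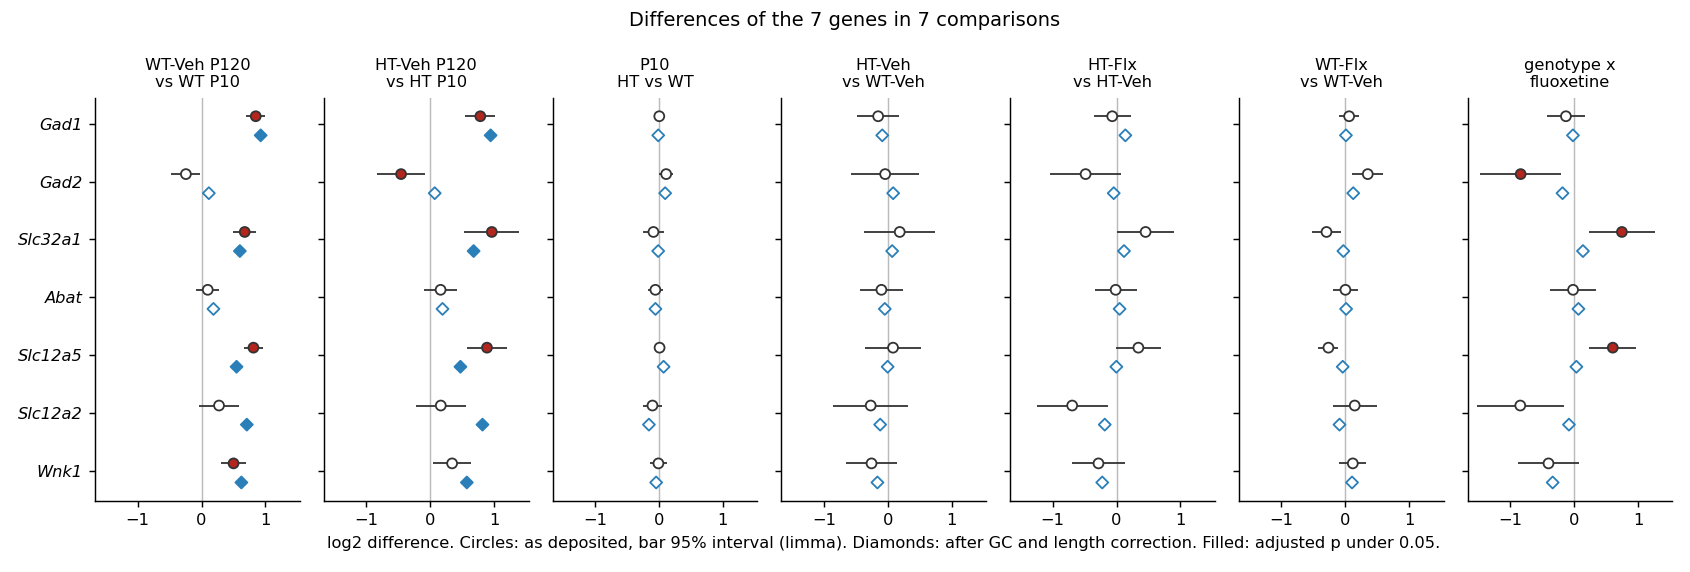
Difference in log2(value + 1) (x axes) of the 7 genes (y axis) in 7 comparisons (panels), with circles for deposited values and their 95% limma interval and diamonds for values corrected for GC content and length with the longest coding sequence. With the mean over transcripts and the longest transcript, which are not drawn, the interaction was −0.55 and −0.42 for Gad2 and 0.03 and −0.43 for Slc12a2. Symbols are filled where the adjusted p was under 0.05, and the diamonds for fluoxetine in HT mice, fluoxetine in WT mice and their interaction lie between −0.33 and 0.14 for all 7 genes, while the circles of Slc12a5, Slc32a1, Gad2 and Slc12a2 reach from −0.84 to 0.75.

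Early fluoxetine was the treatment of the study, and its comparisons share their vehicle libraries with those of age and of genotype at P120. Slc12a5, Slc32a1, Gad2 and Slc12a2 had their most extreme means of the 6 groups in HT-Flx mice. Slc12a5 stood at 44312, 44982, 39113.5, 49065 and 38728.5 (43240.3 ± 4345) in HT-Flx mice, beside 34688 ± 7758 in HT-Veh mice. HT-Flx 1, 3 and 5 fell inside the HT-Veh range, and the difference was 0.34 (95% interval −0.01 to 0.69, adjusted p = 0.216). Slc12a2 stood at 1161, 2175, 1202, 2574 and 1899.6 (1802 ± 616), against 1829, 2643, 2389.8, 4075 and 3498 (2887 ± 896) with vehicle, a difference of −0.69 (95% interval −1.25 to −0.14, adjusted p = 0.215). HT-Flx 1 and 3 had less Slc12a2 than any other mouse of the 30. Slc32a1, the vesicular transporter, stood at 12724, 12615, 9942, 14092 and 10094 (11893 ± 1809) with fluoxetine, a difference of 0.45 (95% interval 0.00 to 0.90, adjusted p = 0.215), and Gad2 at 2564, 4679, 2619, 6038 and 3945 (3969 ± 1465), a difference of −0.48 (95% interval −1.04 to 0.07, adjusted p = 0.231).

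No member was called in this comparison, and 0% of 17676 genes were called in limma, although 4082 (23.1%) had an unadjusted p under 0.05, Slc32a1 and Slc12a2 among them. The groups overlapped in all 7 members, beside 1.62% of all genes that did not overlap. Gad1 differed by −0.07 (95% interval −0.35 to 0.22, adjusted p = 0.738), Abat by −0.01 (95% interval −0.34 to 0.31, adjusted p = 0.958) and Wnk1 by −0.28 (95% interval −0.70 to 0.14, adjusted p = 0.321). Without the library labelled HT-Veh 2 no member was called either, with Slc12a2 at −0.71 (adjusted p = 0.264). In a fit over all 30 libraries, into which the narrower spread of the pups entered, calls were common. In it 5948 genes passed, and Slc32a1, Slc12a5, Slc12a2 and Gad2 were among these many (adjusted p = 0.019 to 0.0414, limma). Corrected for GC content and length, Slc12a5 differed by −0.00, 0.00 and −0.02 and Slc32a1 by 0.12, 0.11 and 0.11 under the 3 ways of assigning a transcript. Slc12a2 then differed by −0.18, −0.14 and −0.40 and Gad2 by −0.04, −0.30 and −0.19. In the same mice the summed level of 8 oligodendrocyte markers was 257258 to 286498 with fluoxetine and 202429 to 256577 with vehicle, and none of the 8 was called. Their median difference was 0.08, beside 0.02 over all genes. Other lists had larger medians, −0.35 for 7 markers of all neurons and 0.36 for 7 of oligodendrocyte precursors, also with no call.

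In WT mice fluoxetine went with the opposite order of groups. Slc12a5 stood at 28139.5, 25333, 26048, 27687 and 26423 (26726 ± 1163) in WT-Flx mice, all below the 5 WT-Veh mice, of which the lowest had 28350.2. The difference was −0.26 (95% interval −0.42 to −0.11, adjusted p = 0.0882), the only member whose groups did not overlap, beside 4.12% of all genes with WT-Flx lower throughout and 6.41% in either direction. Gad2 stood at 6884, 7233, 7480.4, 6471 and 7985 (7211 ± 576), with only the highest WT-Veh mouse (6600.2) inside that range, and differed by 0.35 (95% interval 0.11 to 0.60, adjusted p = 0.111). Slc32a1, at 6362, 5119.6, 5726, 6727 and 6767 (6140.3 ± 707), differed by −0.29 (95% interval −0.52 to −0.07, adjusted p = 0.131). None of the 7 was called and none of 17865 genes (0%), while 4504 genes (25.2%) had an unadjusted p under 0.05, Gad2, Slc32a1 and Slc12a5 among them.

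Without WT-Veh 1, the count of genes called in WT mice rose to 1400, and Slc12a5 (−0.31, adjusted p = 0.037) and Gad2 (0.41, adjusted p = 0.049) passed. Without the library labelled WT-Veh 2 neither did (−0.25 and 0.37, adjusted p = 0.196 for both). Slc12a2 was at 3595 ± 548 with fluoxetine, a difference of 0.15 (95% interval −0.20 to 0.49, adjusted p = 0.574), Gad1 at 13159.5 ± 182 with an interval of −0.09 to 0.21, Abat at 13562 ± 959 with an interval of −0.19 to 0.19, and Wnk1 at 9457 ± 912 with an interval of −0.09 to 0.33. After correction Slc12a5 differed by −0.04, −0.00 and 0.02, Slc32a1 by −0.03, −0.03 and 0.00 and Gad2 by 0.12, 0.25 and 0.22, with no call.

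The response to fluoxetine was compared between genotypes by the interaction of genotype and treatment over the 20 adult libraries. Slc12a5 (0.61 (95% interval 0.24 to 0.97, adjusted p = 0.0347)) and Slc32a1 (0.75 (95% interval 0.24 to 1.26, adjusted p = 0.0367)) were higher, and Gad2 (−0.84 (95% interval −1.46 to −0.21, adjusted p = 0.0464)) lower, in HT mice relative to WT mice. In each of the 3, the mean moved in opposite directions: Slc12a5 and Slc32a1 were higher with fluoxetine in HT and lower in WT mice, and Gad2 the reverse. Slc12a2 had as large a difference as Gad2 (−0.84 (95% interval −1.52 to −0.16, adjusted p = 0.0568)) but did not pass. Wnk1 differed by −0.40 (95% interval −0.87 to 0.07, adjusted p = 0.172), Gad1 by −0.13 (95% interval −0.42 to 0.17, adjusted p = 0.503) and Abat by −0.02 (95% interval −0.38 to 0.35, adjusted p = 0.951). So 3 of 7 members were called, against 27.3% of 17796 genes (15.8% higher and 11.5% lower). Of the called genes 57.8% were higher, or 31.8% under equal totals, which shifted the median of all genes by −0.17. Rescaled in that way, Slc12a5 (0.42), Slc32a1 (0.56) and Gad2 (−1.02) kept their directions and calls and Slc12a2 also passed (−1.03, adjusted p = 0.0398).

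These calls rest on few libraries. Without both vehicle libraries numbered 2, Slc12a5 (0.61, adjusted p = 0.0576), Slc32a1 (0.76, adjusted p = 0.0618) and Gad2 (−0.90, adjusted p = 0.0666) kept their size and lost their calls, and 0 of all genes passed. Leaving out 1 library at a time left 0 to 4 members called, 0 without HT-Flx 1 and 4 without HT-Flx 4. The call of Gad2 was lost in 13 of these 20 fits, that of Slc32a1 in 10 and that of Slc12a5 in 8, with no change of direction. Over the 10% of genes lowest in GC content the median interaction was −0.84, and over the highest 10% 0.62, the directions of Gad2 and of Slc12a5 and Slc32a1. Corrected for GC content and length, Slc12a5 was at 0.04, −0.00 and −0.04, Slc32a1 at 0.14, 0.15 and 0.11, Gad2 at −0.18, −0.55 and −0.42 and Slc12a2 at −0.08, 0.03 and −0.43, and neither a member nor any other gene was called under any of the 3 ways. The correction did not shrink every difference. Arid1b (59.1% GC) had an interaction of −0.13 as deposited and −0.72 with the longest coding sequence (adjusted p = 0.135, limma). Its difference with fluoxetine went from −0.04 to −0.39 in HT and from 0.08 to 0.33 in WT mice, with no call. The source of these differences was not tested.

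The other genes of GABA and chloride handling split in the same manner, with 16 higher and 15 lower of 70 tested in the interaction, beside 15.8% of all genes higher and 11.5% lower, and a median of −0.04 beside 0.01 over all genes. Of 16 GABA-A subunits 9 were lower and 1 higher, among them Gabrg1 (−1.47) and Gabrb2 (−1.32). Slc6a11, the astrocytic GABA transporter, was higher by 0.77, and no gene of its list of 4 was lower. Slc12a4, the ubiquitous potassium-chloride cotransporter KCC1, was higher (0.96), as 2 of 6 other cotransporters were. Clptm1, which holds GABA-A receptors in the endoplasmic reticulum (0.94), and Insyn1 (0.81) were 2 of 3 postsynaptic genes of 11 that were higher. Of the exchangers of chloride and bicarbonate, Slc4a3 was higher (0.87) and Slc4a10 lower (−1.21), in a list with 3 of 9 in each direction.

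Among 9 kinases and regulators 1 was higher and 2 lower: Wnk2 was higher (0.53) and Wnk3 lower (−1.09), whereas Stk39 (−0.40, adjusted p = 0.0784) and Oxsr1 (−0.12) did not pass. Precursor supply had 3 of 9 higher and none lower, and GABA-B genes 1 of 6 in each direction. After correction 0 of the 31 calls remained, and 0 without the vehicle libraries numbered 2. In the separate comparisons of fluoxetine, and in those of genotype at P10 and P120, none of these genes was called. Of 15 GABAergic interneuron markers 2 were lower in the interaction, and of 7 markers of all neurons 3 were higher and 1 lower, beside 15.8% of all genes higher and 11.5% lower. Their medians were −0.07 and −0.51, so for all neurons the median went against most of the calls. Of 7 markers of oligodendrocyte precursors 3 were higher, with a median of 0.62. After correction with the longest coding sequence none of these markers was called, and the 3 medians were −0.38, 0.03 and 0.03.

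**Figure D3:**
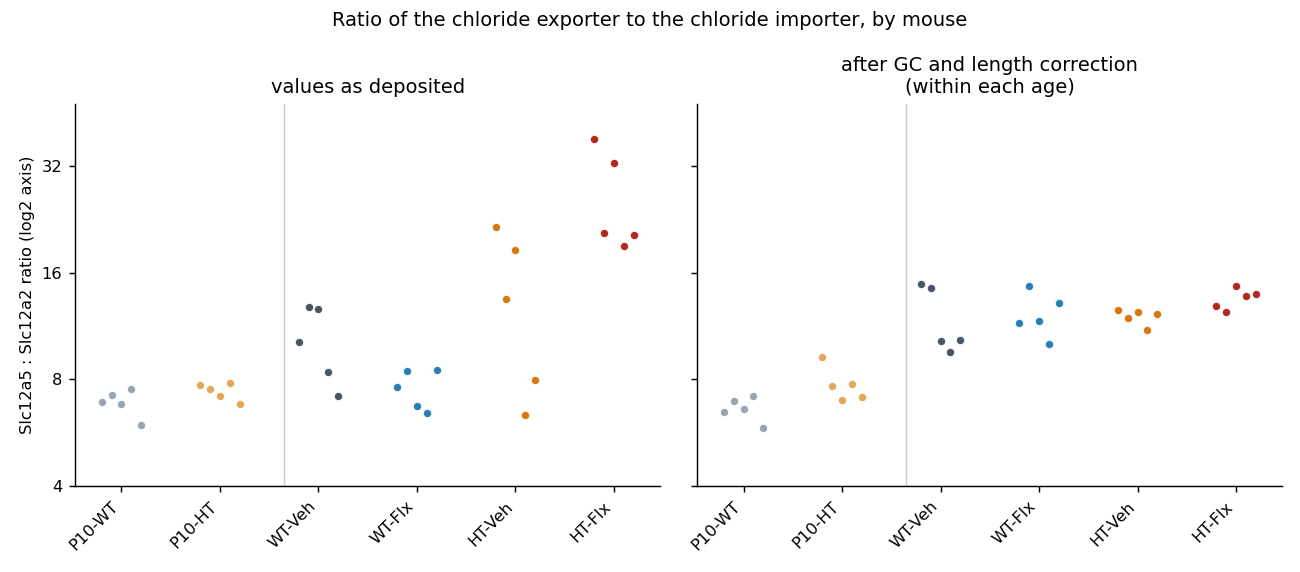
Slc12a5 to Slc12a2 ratio per mouse on a log2 axis, from deposited values (left) and from values corrected for GC content and length within each age (right, where ages cannot be compared), with 1 point per mouse. On the left the HT-Flx mice lie between 19.1 and 38.2 and the WT-Flx mice between 6.42 and 8.53, and on the right the 4 adult groups overlap.

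The ratio of Slc12a5 to Slc12a2 in a mouse compares the transcripts of a chloride exporter and a chloride importer over all cells of the brain, measures no transport, and does not depend on the scaling of its library. It was not divided by transcript length, so it does not give a ratio of molecules. Its 2 transcripts differ in GC content (58.3% and 44.2%), and the rank of the adult mice depended on the correction. The lowest and highest were HT-Veh 4 and HT-Flx 1 as deposited, and WT-Veh 4 and WT-Veh 1 after correction with the longest coding sequence. In P10-WT mice it was 6.89, 7.23, 6.84, 7.53 and 5.96 (6.89 ± 0.589) and in P10-HT mice 7.74, 7.53, 7.2, 7.83 and 6.83 (7.43 ± 0.411). WT-Veh mice had 10.2, 12.8, 12.7, 8.37 and 7.16 (10.2 ± 2.52) and WT-Flx mice 7.62, 8.44, 6.74, 6.42 and 8.53 (7.55 ± 0.963). The adult WT mice were thus above or within the range of the pups. HT-Veh mice had 21.6, 13.5, 18.6, 6.37 and 7.97 (13.6 ± 6.57) and HT-Flx mice 38.2, 20.7, 32.5, 19.1 and 20.4 (26.2 ± 8.64). All 5 HT-Flx mice exceeded every mouse of the other groups except HT-Veh 1, which was above 3 of them.

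The ratio was tested in 8 comparisons by exact two-sided permutation of mice. For the interactions, treatment was permuted within each genotype and genotype within each age. The p of an interaction thus tests against no difference in either pair of groups, not against equal differences. Its interaction of genotype and fluoxetine was 1.45 log2 units (exact p = 0.00283, adjusted over the 8 tests 0.0226), and it stayed at 1.39 (exact p = 0.00737) without the vehicle libraries numbered 2. Fluoxetine in HT mice went with a difference of 1.04, a ratio of 2.05-fold (exact p = 0.0476, adjusted 0.127), and in WT mice of −0.41 (p = 0.0714, adjusted 0.143). The exact p in HT mice was 0.0556 without the library labelled HT-Veh 2 (1.07), and in WT mice 0.127 without that labelled WT-Veh 2 (−0.32). Adults exceeded pups by 0.54 in WT (exact p = 0.0238, adjusted 0.0952) and by 0.72 in HT mice (p = 0.119, adjusted 0.19), and without these 2 libraries by 0.45 (exact p = 0.0238) and 0.69 (exact p = 0.135). Neither the genotypes at P10 (0.11, exact p = 0.151), those with vehicle (0.35, p = 0.457) nor the age by genotype interaction (0.24, p = 0.616) passed. The smallest exact p that 5 against 5 mice allow is 0.00794, and 4 against 4 allow 0.0286.

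Corrected for GC content and length, the interaction of the ratio was 0.12 (exact p = 0.511), −0.03 (exact p = 0.869) and 0.39 (exact p = 0.111) under the 3 ways of assigning a transcript. The difference of HT-Flx from HT-Veh mice was 0.18 (exact p = 0.0159), 0.14 (exact p = 0.0714) and 0.38 (exact p = 0.0556), in the same direction as the deposited values but a fraction of their size. That of WT-Flx from WT-Veh mice was 0.05, 0.16 and 0.00. With age the sign turned, to −0.16, −0.13 and −0.01 in WT mice and to −0.35 (exact p = 0.00794), −0.31 (exact p = 0.0159) and −0.13 (exact p = 0.294) in HT mice. At P10 the ratio was then higher in HT mice by 0.23 (exact p = 0.0238), 0.26 (exact p = 0.0159) and 0.18 (exact p = 0.0794). These p-values are not adjusted over comparisons.

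**Figure D4:**
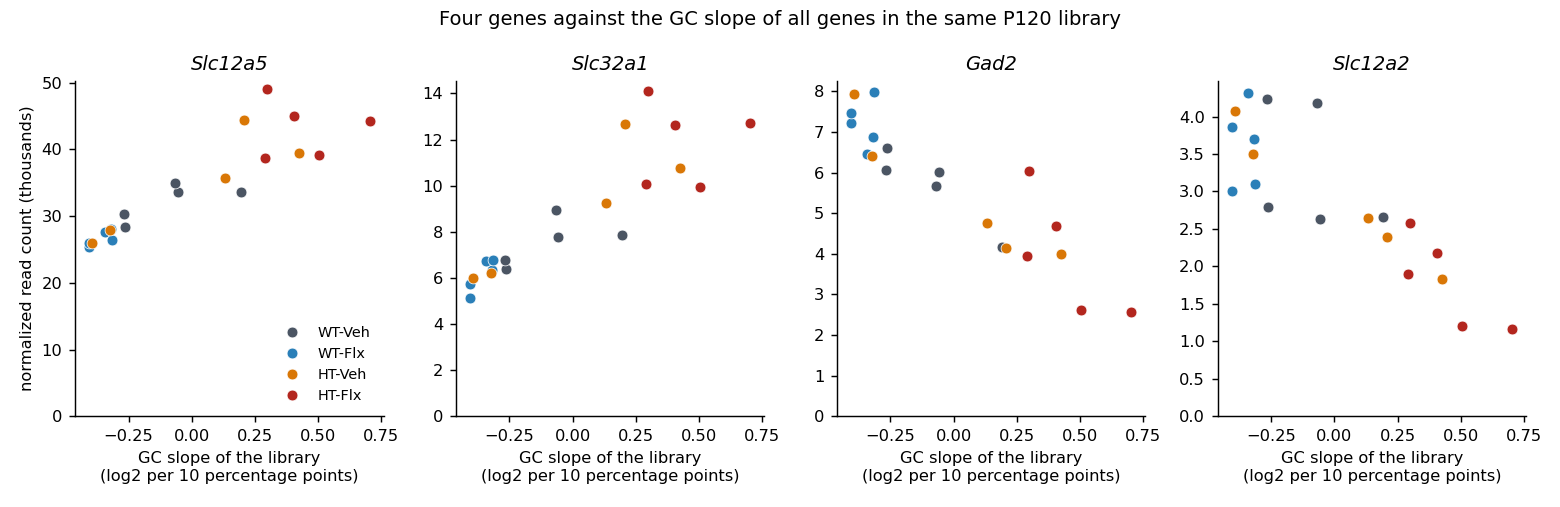
Normalized read count of Slc12a5, Slc32a1, Gad2 and Slc12a2 (y axes) in each of the 20 P120 libraries against the slope of that library's gene deviations on GC content (x axis, log2 units per 10 percentage points), coloured by group. Slc12a5 and Slc32a1 rise with the slope and Gad2 and Slc12a2 fall, with WT-Flx mice at the left (−0.406 to −0.315) and HT-Flx mice at the right (0.291 to 0.704).

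Within the HT-Veh group, mice treated alike differed along the same axis. HT-Veh 1, 2 and 3 had GC slopes of 0.425, 0.133 and 0.208, and their Slc12a5 was 39519, 35735 and 44359. The library labelled HT-Veh 2 had its Arid1b within the range of WT libraries. HT-Veh 4 and 5 had slopes of −0.395 and −0.324, and their Slc12a5 was 25943 and 27885, close to the WT-Flx mean of 26726. Gad2 was lower in the first 3 (3991, 4748 and 4155) than in the other 2 (7938 and 6418), and so was Slc12a2 (1829, 2643 and 2389.8 against 4075 and 3498). Over the 20 adult libraries the highest Slc12a5 was 1.94-fold the lowest as deposited and 1.15-fold after correction. For Slc12a2 this range shrank from 3.72-fold to 1.735-fold, for Gad2 from 3.11-fold to 1.55-fold and for Slc32a1 from 2.75-fold to 1.39-fold. Of the members near the median GC content, Gad1 (1.44-fold and 1.27-fold) and Abat (1.61-fold and 1.36-fold) changed less, and Wnk1 went from 2.41-fold to 1.77-fold. The ratio of Slc12a5 to Slc12a2 spanned 5.99-fold as deposited and 1.56-fold after correction. What sets the slope of a library, and its part in these values, was not tested.

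Members also moved together within groups. Over deviations of the 30 libraries from their group means, Slc12a5 and Slc32a1 correlated at 0.952, Slc12a2 and Wnk1 at 0.843, Gad1 and Abat at 0.808 and Gad2 and Slc12a2 at 0.757, while the 2 decarboxylases correlated at 0.393 and the 2 cotransporters at −0.225. These are descriptions over libraries that share composition. Of 14525 genes, the closest to Slc12a5 were Hcn2 (0.974), Rims3 (0.973) and Nomo1 (0.972), with transcripts of 65.4%, 55.4% and 55.5% GC, and the closest to Slc32a1 were Hcn2 (0.979), Yif1b (0.975) and Ache (0.973). Closest to Gad2 were Fam169a (0.964), Napb (0.962) and Ubr3 (0.962), with 38.3%, 44.2% and 44.3% GC, and to Slc12a2 Tmem229a (0.964), Hif1a (0.962) and Rora (0.961). Gad1 was most like Eif2ak3 (0.888), Uhmk1 (0.884) and Gatm (0.879), Abat like Ermp1 (0.935), Dusp16 (0.917) and Clcn5 (0.916), and Wnk1 like Rmnd5a (0.942), Epb41l3 (0.932) and Frrs1l (0.929). The genes nearest to Slc12a5 and Slc32a1 thus all had a GC content above the median of 50.2%, and those nearest to Gad2 and Slc12a2 one below it. Those nearest to Abat and Wnk1, members close to the median, also all lay below it. Of those nearest to Gad1, Uhmk1 and Gatm lay below the median and Eif2ak3 above it. Neighbours below the median were therefore not particular to Gad2 and Slc12a2.

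For each member the groups were also put in the order of their own means. Neighbours in such an order mix age, genotype and treatment, and the p-values of the steps are not adjusted. Gad1 fell into 2 levels, the 4 adult groups (11610.0 to 13159.5) above the 2 pup groups (7015 and 7032), and only the step between HT-Flx and P10-HT mice separated neighbours (exact permutation p = 0.00794, n = 5 each). For Slc12a5 the order was HT-Flx, HT-Veh, WT-Veh, WT-Flx, P10-HT and P10-WT, and neighbours were separate at 2 steps, from WT-Veh to WT-Flx and from WT-Flx to P10-HT (exact permutation p = 0.00794 for both). Between WT-Veh and WT-Flx mice 6.41% of all genes did not overlap, and such a share was not counted for the other steps without overlap named here. For Slc32a1 the order was HT-Flx, HT-Veh, WT-Veh, WT-Flx, P10-WT and P10-HT, and the step from WT-Flx to P10-WT alone had no overlap. For Slc12a2 it was WT-Flx, WT-Veh, HT-Veh, P10-WT, P10-HT and HT-Flx, and for Gad2 P10-HT, WT-Flx, P10-WT, WT-Veh, HT-Veh and HT-Flx. Neighbours overlapped at every step of these 2 orders, and likewise in Wnk1 and Abat. Some steps with overlap had a low exact permutation p, at 0.0238 for Gad2 from P10-WT to WT-Veh. It was 0.0317 for Slc32a1 from WT-Veh to WT-Flx and 0.0476 for Slc12a2 from P10-HT to HT-Flx.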

How the data were processed

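RNA of 30 whole brains was sequenced, 1 library per mouse in 6 groups of 5. Libraries were made with the TruSeq RNA Sample Prep Kit v2, which does not mark strand, and read as pairs on a NovaSeq. The authors estimated transcript abundance with Salmon 1.1.0 on GRCm38 with its GC bias option, imported it with tximport and deposited read counts normalized by DESeq2 1.30.1 as a signal per gene, which are neither whole reads nor per length. The labels list R 4.1.1. The values gave the same median ratio (1.0137) in all libraries over 18673 genes, so all 30 were scaled together. The depth per library is unknown, and precision rests on the number of mice.

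Symbols, positions and transcripts were taken from GENCODE M21 on GRCm38, which matched 19722 of the 19737 identifiers. Genes with a mean of at least 10 over the compared libraries were tested with limma 3.58.1 (R 4.3.3) on log2(value + 1) with an intensity trend, at an adjusted p (Benjamini-Hochberg over all tested genes) under 0.05. The pseudocount of 1 leaves fold changes of these abundant genes almost untouched. Ratios per mouse were compared by exact two-sided permutation, for interactions within each genotype or age. The 8 comparisons were genotype at P10 and with vehicle at P120, fluoxetine in each genotype, age in each genotype, and 2 interactions. The fits were tested on simulated data.

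Members and lists were chosen with earlier results of these data known. All 7 members are named, with up to 5 higher and 5 lower listed genes per comparison (largest difference among those called, not overlapping where 2 groups are compared, mean of at least 50), 6 genes named for their roles, the 3 genes most alike to each member, and Arid1b. Some genes that this rule names are not reported here. The 3 transcript definitions behind the GC and length correction (10 by 10 bins), and the correction of the ratio, were settled after values had been seen. No source used here states that replicate numbers pair the mice, which were tested as unpaired. Other settings were the pseudocount, the filter, the trend, rescaling, the libraries in the fit, a replicate block and leaving out each library.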

Additional observations from a re-analysis of the deposited data

Results flagged for a closer look

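Slc32a1 and Abat of P10-HT 1 stood apart from the other 4 mice of their group, by a gap to the nearest mouse that was large for the group's range (Dixon's test). Slc32a1 was 3439 in this mouse and 4519 to 4895 in the others, and Abat was 10691 against 12280.4 to 12849. Of 48 groups of values tested 2 stood out in this way, and chance flags about 1 in 20. The same library had a GC slope of −0.174, below the −0.0426 to 0.0337 of the other P10-HT libraries, and its part in these values was not tested.

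The response to fluoxetine differed between genotypes in 3 members by limma (adjusted p under 0.05). The interaction of the ratio passed an exact permutation within each genotype, which tests against no difference with fluoxetine in either genotype. The interaction was −0.836 log2 units for Gad2, 0.749 for Slc32a1, 0.606 for Slc12a5 and 1.448 for the ratio of Slc12a5 to Slc12a2. After correction for GC content and length these were −0.18, 0.14, 0.04 and 0.12 with the longest coding sequence, −0.55, 0.15, −0.00 and −0.03 with the mean over transcripts and −0.42, 0.11, −0.04 and 0.39 with the longest transcript. None of them passed its test after correction.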

How the results depend on the processing

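The depth of the libraries is unknown, so the precision of a value rests on the 4 or 5 mice of a group, and small differences of members in HT-Veh and HT-Flx mice were not detectable. The correction for GC content and length subtracts what genes of like composition share, and the 3 transcript definitions for it were chosen after the data were seen. Across settings other than leaving out 1 library, the counts of genes and the ratio kept direction and call in 355 comparisons with the reported value and changed in 52, and single members kept them in 705 and changed in 121, of which 70 turned direction. Of filters, pseudocounts and median-of-ratios rescaling, only the minimum mean of 100 changed a call, that of Slc12a2 in the interaction of genotype and fluoxetine (−0.84, adjusted p = 0.0463). The cause was not tested.

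With all 30 libraries in one fit, where the narrower spread of the P10 mice enters the test, 0 genes were called at P10, 5948 between HT-Flx and HT-Veh mice (4 members and 38 other listed genes) and 7637 in the interaction of genotype and fluoxetine (47 other listed genes). Without the intensity trend 19 other listed genes were called in the interaction. Under equal totals Abat turned to −0.0078 in WT and −0.0029 in HT mice with age. With all 5 and 5 vehicle libraries, and with all 30 in one fit, Abat turned to 0.0067 between genotypes with vehicle and to 0.064 in the age by genotype interaction.

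Without the vehicle libraries numbered 2, the interaction of genotype and fluoxetine called 0 genes, 0 members and 0 other listed genes. Abat then turned to 0.046 in HT mice, −0.045 in WT mice and 0.091 in the interaction, and the ratio between HT-Flx and HT-Veh mice was 1.07 with an exact p of 0.0556.

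Deviations of samples that share a replicate number correlated from −0.303 to 0.407 over the comparisons of 2 groups. In HT-Flx and HT-Veh mice the mean correlation was 0.179 for the same number and −0.0441 for other pairs. Whether the numbers pair any mice cannot be told from these values, and the main tests took the mice as unpaired. Between 0 and 7 samples of a comparison correlated best with their own number, with 7 of 10 at P10. A fit with the replicate block called 7 genes at P10 and 1355 of 17676 between HT-Flx and HT-Veh mice, of which 63 were higher, with 2 members (Gad2 and Slc12a2, both lower) and 10 other listed genes. Under the block the ratio was 1.036 in HT mice with fluoxetine and 0.5384 in WT mice with age, both with an exact p of 0.0625, the smallest that 5 pairs allow. The block combined with the correction called 3 genes between HT-Flx and HT-Veh mice.

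After the correction with the longest coding sequence, also with the replicate block, the interaction of genotype and fluoxetine called 0 genes, 0 members and 0 other listed genes. These differences turned, without a call: Gad1 at P10 (−0.012), Gad2 (0.084) and Slc12a5 (−0.0023) with vehicle, Gad1 (0.14), Abat (0.048) and Slc12a5 (−0.0030) with fluoxetine in HT mice, Slc12a2 in WT mice (−0.091), Abat in the interaction (0.069), Gad2 with age in WT (0.11) and HT mice (0.070), and Slc12a2 (0.046) and Slc12a5 (−0.082) in the age by genotype interaction. The ratio was 0.230 at P10, 0.0497 in WT mice with fluoxetine, 0.117 in the interaction, −0.161 and −0.345 with age in WT and HT mice and −0.128 in the age by genotype interaction.

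With the mean over transcripts the interaction again called 0 genes. The differences that turned were Gad2 (0.067) and Slc12a5 (−0.013) with vehicle, Wnk1 in HT mice (0.031), Slc12a2 (−0.16) and Wnk1 (−0.014) in WT mice, Slc12a2 (0.029), Slc12a5 (−0.0039) and Wnk1 (0.054) in the interaction and Slc12a5 with age by genotype (−0.091). The ratio was 0.258 at P10, 0.141 and 0.163 with fluoxetine in HT and WT mice, −0.0333 in the interaction, −0.128 and −0.310 with age and −0.0762 with age by genotype. With the longest transcript, which also called 0 genes in the interaction, Gad1 turned at P10 (−0.010), Gad2 (0.10) and Slc12a5 (−0.030) with vehicle, Gad1 (0.094) and Slc12a5 (−0.022) in HT mice, and Gad1 (−0.019), Slc32a1 (0.0024) and Slc12a5 (0.016) in WT mice. Gad1 (0.12) and Slc12a5 (−0.037) turned in the interaction, and Gad2 (0.0041) and Slc12a5 (−0.080) with age by genotype. The ratio was 0.378 and 0.00184 with fluoxetine in HT and WT mice, 0.389 in the interaction, −0.0133 and −0.133 with age and −0.0728 with age by genotype.

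The correction over all 5 and 5 vehicle libraries turned Gad2 (0.036), Abat (0.040) and Slc12a5 (−0.0029) between genotypes, and Abat (0.030), Slc12a2 (0.13) and Slc12a5 (−0.077) with age by genotype. Without the vehicle libraries numbered 2 it left 0 genes called in the interaction and turned Gad1 (0.17) and Abat (0.087) in HT mice, Gad1 (−0.035), Abat (−0.039) and Slc12a2 (−0.17) in WT mice, Gad1 (0.048), Abat (0.15) and Slc12a2 (0.0038) in the interaction, and Gad2 with age in WT (0.097) and HT mice (0.091).

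Leaving out 1 library at a time gave 3 to 8 genes at P10, 0 to 1 with vehicle, 0 to 1 with fluoxetine in HT mice, 0 to 1400 in WT mice (1400 without WT-Veh 1), 0 (without HT-Flx 1) to 7667 (without HT-Veh 1) in the interaction and 0 to 1 with age by genotype. Members called ranged from 0 to 2 in WT mice with fluoxetine and from 0 to 4 in the interaction, and other listed genes from 0 to 8 and from 0 to 42. Differences that turned in at least 1 such fit ranged at P10 from −0.015 to 0.022 (Gad1), −0.12 to 0.0025 (Slc32a1), −0.010 to 0.034 (Slc12a5) and −0.055 to 0.028 (Wnk1), and with vehicle from −0.23 to 0.10 (Gad2), −0.0081 to 0.35 (Slc32a1) and −0.052 to 0.21 (Slc12a5). Abat ranged from −0.092 to 0.082 in HT mice, −0.047 to 0.042 in WT mice, −0.094 to 0.081 in the interaction and −0.12 to 0.042 with age by genotype, where Slc12a2 ranged from −0.34 to 0.042 and Slc12a5 from −0.061 to 0.20. The ratio ranged from 0.800 to 1.24 and −0.531 to −0.322 with fluoxetine in HT and WT mice, 0.449 to 0.658 and 0.518 to 0.959 with age in WT and HT mice and −0.0467 to 0.541 with age by genotype.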
